A study of Mus musculus with 2 samples.

Results

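Transcripts of 9 genes that switch off mitogen-activated protein (MAP) kinase signalling were examined in LPS-treated mouse macrophages: the MAP kinase phosphatase genes Dusp1, Dusp2, Dusp4, Dusp5, Dusp6 and Dusp16, the Spred genes Spred1 and Spred2, and the Sprouty gene Spry2. They were chosen by gene symbol, with earlier results of these data known, and all 9 were found among the 16218 genes of the deposited table. Each had a mean of at least 1 CPM (counts scaled to the library total) over both libraries, as did 11662 genes in all, which are called measured below.

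The macrophages were grown from C57BL/6J bone marrow over 5 days. The culture contained 10% L929 cell supernatant, which supplies macrophage colony-stimulating factor, and 10% fetal bovine serum, and 10 ng/ml LPS was added for 3 h. TKO cells were homozygous null (-/-) for the microRNA clusters mir-106a~363 and mir-106b~25 and carried floxed mir-17~92 alleles (flox/flox) with Lyz2-Cre, which recombines in myeloid cells. WT cells also carried Lyz2-Cre, so the Cre was common to both genotypes. Each genotype had 1 polyadenylated RNA library, with 10836855 counts for TKO and 10764519 for WT. The age of the mice and the number pooled were not stated in the labels, and no unstimulated library was analysed here. With 1 library each, no difference below has a replicate check or a test, and "higher" or "lower" describes these 2 libraries.

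ERK, JNK and p38, the MAP kinases, are active while a threonine and a tyrosine in their activation loop carry phosphate, and the DUSP enzymes remove both. Sprouty and Spred proteins act further up, where they restrain the relay from Ras through Raf to ERK. Many of these genes are themselves transcribed in response to MAP kinase activity, so they form feedback loops. In macrophages, LPS activates all 3 kinase branches through Toll-like receptor 4, and Dusp1 is best known for limiting p38 and JNK activity and cytokine output.

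The microRNAs of the deleted clusters fall into 4 families that share a seed, bases 2 to 8, by which they recognise messenger RNA. The RefSeq sequences (GRCm38.p6) below show 1 microRNA per family, written 5′ to 3′ with the seed in capitals, because the 3′ untranslated regions (3′ UTRs) of the 9 transcripts were searched for their matches.
mmu-miR-17-5p: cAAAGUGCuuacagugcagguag
mmu-miR-18a-5p: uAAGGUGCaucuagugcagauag
mmu-miR-19a-3p: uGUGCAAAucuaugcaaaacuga
mmu-miR-92a-3p: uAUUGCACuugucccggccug
The first family has 6 of the 15 microRNA genes, the second 2, the third 3 and the fourth 4. None of the 15 genes has an entry in the table, which measures messenger RNA. Mir17hg, the host transcript of mir-17~92, had 16 counts in TKO and 16 in WT, which does not show whether the floxed part was removed.

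Of the 9 transcripts, 3 held a match of 7 bases to a deleted family in their longest GENCODE M21 3′ UTR, against 28.9% of 21021 annotated 3′ UTRs. The matched stretches are shown with 8 flanking bases on each side, in the direction of the messenger RNA, with the match in capitals.
Dusp2, miR-17 family: tggaaacaGCACTTTatatttat
Spred1, miR-17 family, first match: gaattgaaGCACTTTttccttac
Spred1, miR-17 family, second match: ttacaaatGCACTTTggattcat
Dusp16, miR-18 family: tccctagtGCACCTTagcgctaa
In GRCm38 coordinates the Dusp2 stretch is chr2:127338299-127338321 (plus strand), the Spred1 stretches are chr2:117180874-117180896 and chr2:117181215-117181237 (plus strand), and the Dusp16 stretch is chr6:134717479-134717501 (minus strand). The Dusp2 and Dusp16 matches are followed by an A, opposite microRNA base 1, and the Spred1 matches are not. A 3′ UTR within 20% of the length of that of Dusp2 (581 bases) held a miR-17 match in 5.15% of cases, and one of the length of that of Spred1 (4330 bases) in 32.2%. For Dusp16 (2416 bases) the share with a miR-18 match was 13.2%. The Spred1 matches lie in 1 of its 2 annotated coding transcripts with a 3′ UTR, and the Dusp16 match in 2 of 3. Dusp1, Dusp4, Dusp5, Dusp6, Spred2 and Spry2 held no match of 7 bases to any of the 4 families. Shorter matches, opposite microRNA bases 2 to 7 only, were present in Dusp1 (1), Dusp4 (1), Dusp5 (3), Dusp6 (2) and Spred2 (3), and absent from Spry2. How common such shorter matches are in all annotated 3′ UTRs was not computed.

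**Figure D1:**
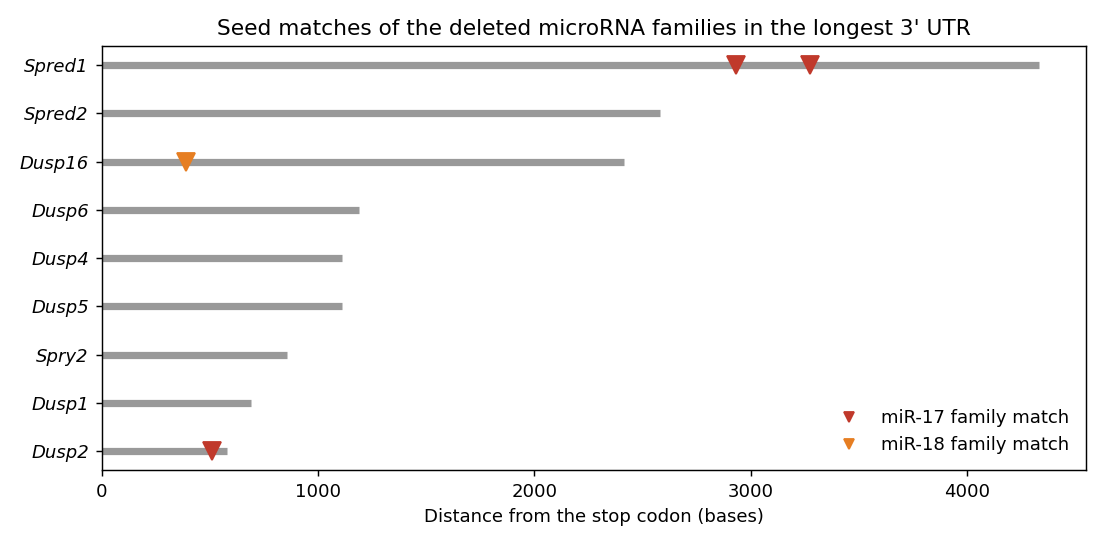
Matches of 7 bases to the seeds of the deleted microRNA families in the longest annotated 3′ UTR of each gene, plotted as bases from the stop codon. Grey bars are the 3′ UTRs, and triangles mark 3 miR-17 matches (1 in Dusp2, 2 in Spred1) and 1 miR-18 match (Dusp16).

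Among the 9 genes, Dusp4 was higher in TKO, and Dusp1, Dusp5 and Dusp6 were lower. A gene was called when its log2 ratio of CPM, with 0.5 CPM added to each library, was at least 1.5-fold in size and the 95% counting interval of its ratio excluded equality. By this rule 1 of the 9 was higher, where 2.83% of all measured genes were, and 3 were lower, where 5.26% were. Either call covered 4 of the 9 genes and 8.09% of all measured genes. These shares are given as description and are not a test, since the 9 genes were chosen with earlier results known. The log2 ratio was below 0 for 8 of the 9 and for 57.4% of all measured genes, with a median of −0.23 over the 9 genes and −0.04 over all. Without a size limit, the interval excluded equality for 6 lower genes and 1 higher gene of the 9, against 20.2% and 14.1% of all measured genes.

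In the authors' deposited table, which compares the same 2 libraries, 4 of the 9 were lower (Dusp1, Dusp6, Dusp16 and Spred1) and 1 higher (Dusp4) at an adjusted value of at most 0.05. The shares of all measured genes there were 14.7% lower and 10.5% higher. Dusp5 did not reach that value in the authors' deposited table (adjusted value 0.1005), and neither did Dusp2 (0.0514).

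**Figure D2:**
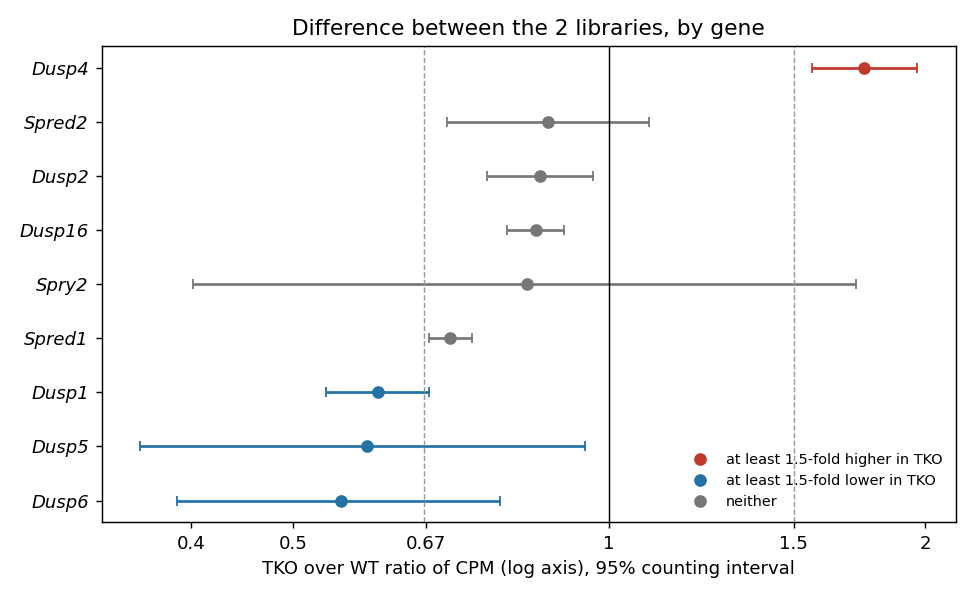
Ratio of TKO CPM over WT CPM for each gene on a log axis, with bars for the 95% counting interval, a solid line at equality and dashed lines at 1.5-fold. Dusp4 (1.75) lies right of equality and the other 8 genes left of it, and the bars of Spred2 and Spry2 cross equality.

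Dusp4 encodes a nuclear phosphatase of ERK and JNK. It had 826 counts in TKO and 469 in WT, or 31.4 FPKM (the authors' measure of fragments scaled by gene length and depth) in TKO and 17.9 FPKM in WT. It was 1.75-fold higher in TKO (1.56 to 1.96, the 95% counting interval, as for every fold below). Of the 9 genes it was the only one with a log2 ratio above 0, at percentile 98.3 of all measured genes.

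Dusp1 encodes the nuclear phosphatase MKP-1. It had 493 counts in TKO and 813 in WT, or 23.4 FPKM in TKO and 38.8 FPKM in WT. It was 1.66-fold lower in TKO (1.48 to 1.86), at percentile 3.91 of the log2 ratios of measured genes. Both Dusp1 and Dusp4 had a mean CPM of at least 10, where 2.12% of genes were called higher and 3.11% lower.

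Dusp4 and Dusp1 exchanged places in abundance. The TKO library held 1.34 times as much Dusp4 as Dusp1 by FPKM, and the WT library 0.462 times as much. The quotient of Dusp4 over Dusp1 counts was 2.90 times as large in TKO as in WT (2.47 to 3.42, exact conditional interval). Such a quotient is taken within each library and does not depend on how the libraries are scaled. Against each of the other 7 genes, the Dusp4 quotient was between 2.00 and 3.15 times as large in TKO, with Spry2 giving the widest interval (1.01 to 4.39). The comparison of Dusp4 with the rest was chosen after its values were seen.

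Dusp2, also called PAC1, encodes a nuclear phosphatase that acts on ERK and p38 and is induced in activated leukocytes. It had 547 counts in TKO and 632 in WT, or 31.2 FPKM in TKO and 36.2 FPKM in WT. It was 1.16-fold lower (1.04 to 1.31) and was not called. Its transcript carries the miR-17 match shown above, and its log2 ratio of −0.22 stood at percentile 26.4 of measured genes.

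The ERK-directed phosphatases Dusp5, in the nucleus, and Dusp6, in the cytoplasm, were low in both libraries and lower in TKO. Dusp6 had 52 counts in TKO and 93 in WT, or 1.70 FPKM in TKO and 3.06 FPKM in WT, and was 1.80-fold lower (1.27 to 2.58). Dusp5 had 29 counts in TKO and 49 in WT, or 2.35 FPKM in TKO and 4.00 FPKM in WT, and was 1.70-fold lower (1.05 to 2.79). Both had under 10 CPM in either library, and the lower bound for Dusp5 lay close to equality. Dusp5 was no longer called with 2 CPM added to each library (log2 ratio −0.49). The deposited length of Dusp5, 1155 bases, equals its coding length in GENCODE M21, whose transcript has 2473 bases, so its FPKM is per coding base, and its counts, fold and sums may leave out reads from its untranslated parts. Summed over Dusp5 and Dusp6 there were 81 counts in TKO and 142 in WT, 1.76-fold lower (1.33 to 2.35).

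Dusp16, also called MKP-7, encodes a phosphatase that acts on JNK and p38, and had the highest FPKM of the 6 phosphatase genes in both libraries. It had 1887 counts in TKO and 2201 in WT, or 34.15 FPKM in TKO and 39.9 FPKM in WT. The difference of 1.17-fold (1.10 to 1.25, lower in TKO) was under the size limit, though its counting interval excluded equality. Over all 6 phosphatases the summed count was 3834 in TKO and 4257 in WT, 1.12-fold lower (1.07 to 1.17). For the 4 nuclear ones (Dusp1, Dusp2, Dusp4 and Dusp5) it was 1895 in TKO and 1963 in WT, with more Dusp4 and less Dusp1 in TKO. The interval of this ratio (0.900 to 1.02) included equality. Summed counts weigh longer genes more, and by FPKM these 4 genes summed to 88.25 in TKO and 96.95 in WT.

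**Figure D3:**
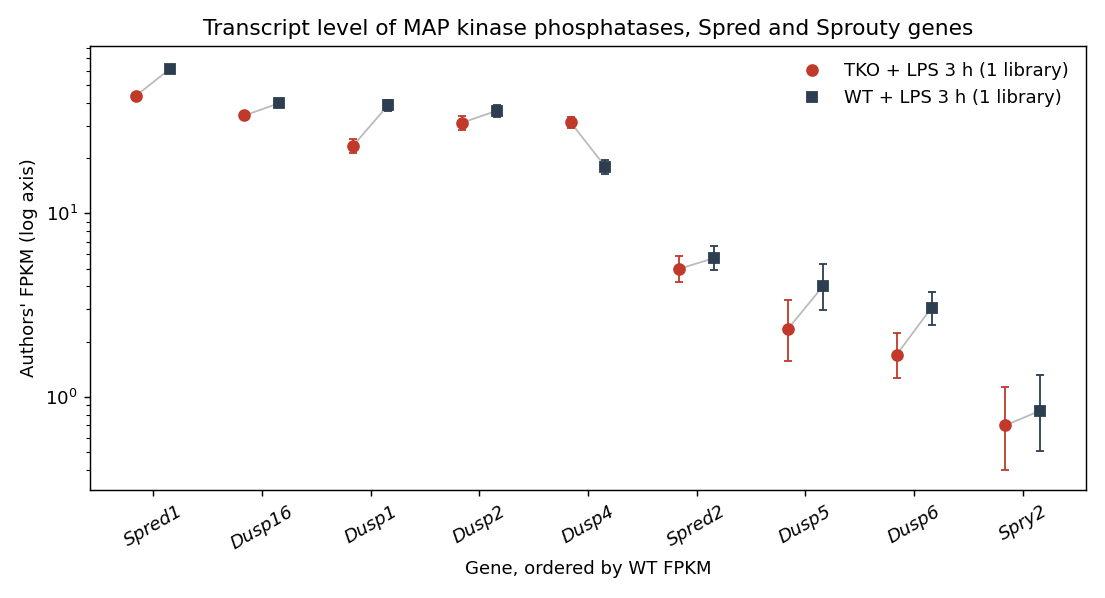
FPKM of each gene in the TKO library (circles, left of each pair) and the WT library (squares, right) on a log axis, with bars for the 95% Poisson interval of the count. Dusp4 is the pair that slopes down to WT, at 31.4 FPKM in TKO and 17.9 FPKM in WT, and Spred1 is the highest gene in both libraries.

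Spred1 encodes a membrane-associated inhibitor that brings neurofibromin to Ras. It was the most abundant of the 9 genes per length, and lower in TKO by less than 1.5-fold. It had 3006 counts in TKO and 4229 in WT, or 43.65 FPKM in TKO and 61.57 FPKM in WT. The difference was 1.42-fold (1.35 to 1.48), with a counting interval that excluded equality. Spred1, with its pair of miR-17 matches, was thus lower in TKO and stood at percentile 8.57 of measured genes.

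Spred2, its close relative, had 156 counts in TKO and 177 in WT, or 4.99 FPKM in TKO and 5.70 FPKM in WT. It was 1.14-fold lower (0.916 to 1.43), a difference not detectable at this depth. Spry2, which restrains growth factor receptor signalling to ERK, had 16 counts in TKO and 19 in WT, or 0.70 FPKM in TKO and 0.84 FPKM in WT. Its ratio of 0.836 (0.402 to 1.72) shows only that a difference beyond those bounds was not seen. Over these 3 genes the summed count, nearly all of it Spred1, was 1.40-fold lower in TKO (1.34 to 1.47).

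Ordered by FPKM, Spred1 came first and Dusp16 second in both libraries, and Spred2, Dusp5, Dusp6 and Spry2 came last in that order in both. Between these blocks the order in TKO was Dusp4, Dusp2, Dusp1, and in WT it was Dusp1, Dusp2, Dusp4. By Poisson intervals of the counts, Dusp16 (32.6 to 35.7 FPKM), Dusp4 (29.3 to 33.6 FPKM) and Dusp2 (28.6 to 33.9 FPKM) overlapped in TKO. In WT, Dusp16 (38.2 to 41.6 FPKM), Dusp1 (36.2 to 41.5 FPKM) and Dusp2 (33.5 to 39.2 FPKM) overlapped. The intervals of Dusp5 and Dusp6 overlapped in both libraries, and those of Spred2 (4.89 to 6.60 FPKM) and Dusp5 (2.96 to 5.29 FPKM) in WT. The 9 genes summed to 173 FPKM in TKO and 208 FPKM in WT. Dusp4 made up 18.1% of that sum in TKO and 8.62% in WT, and Dusp1 made up 13.5% in TKO and 18.6% in WT.

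**Figure D4:**
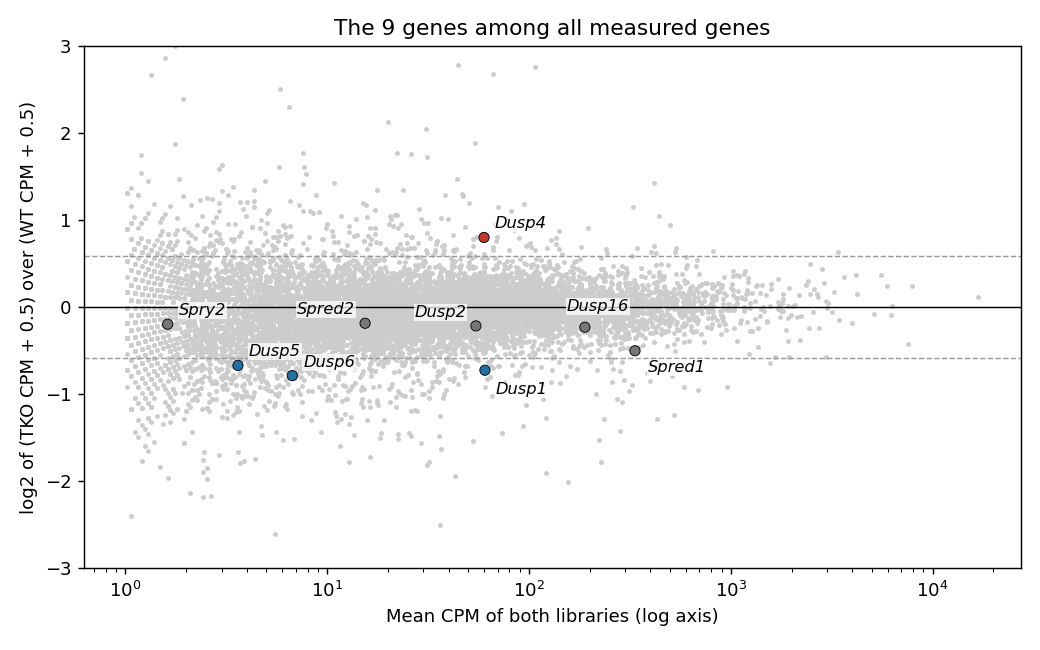
Log2 ratio of TKO over WT (0.5 CPM added) against the mean CPM of both libraries on a log axis, for 11662 measured genes in grey and the 9 genes marked. Dashed lines stand at 1.5-fold, and 19 genes lie more than 3 log2 units from equality, outside the plotted range. Dusp4 and Dusp1 lie at opposite edges of the cloud at a similar abundance.

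The genes lie on 8 chromosomes (Dusp2 and Spred1 share chromosome 2), as given in the RefSeq table of GRCm38.p6. Dusp4 lies on chromosome 8 (34807610 to 34819894), Dusp1 on chromosome 17 (26505591 to 26508472), Dusp6 on chromosome 10 (99263231 to 99267489) and Dusp5 on chromosome 19 (53529145 to 53541809). The 18 nearest measured genes, 1 on each side of each of the 9, lay 4.28 to 9043 kb away, so not all are close. Of these, 0 were called higher and 1 lower, near the 5.26% of all measured genes that were called lower. That gene, Ergic1, which encodes a protein of the early secretory pathway, lies 52.3 kb from Dusp1 and had 479 counts in TKO and 794 in WT. It was 1.67-fold lower and was named after its value was seen. In GENCODE M21 the Dusp1 gene span overlaps Ergic1 by 640 bases and the pseudogene Gm8225 by 956 bases, both on the opposite strand. On its own strand it overlaps AC122252.1 by 1853 bases and AC122252.4 by 227 bases. Dusp5 and Dusp16 each overlap an annotated antisense gene, by 547 and 947 bases. Whether the authors counted reads by strand is not given in the sources used here, so reads from such overlaps cannot be told apart. Counting by strand would not separate the same-strand overlaps. Tnks and Saraf, the nearest measured genes to Dusp4 at 9.3 and 637 kb, had log2 ratios of 0.22 and 0.13 and were not called.

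Promoters of Dusp1 and Dusp5 are shown because these 2 genes, both called lower, hold full motifs of cAMP-response-element-binding protein and serum response factor. Each runs from 250 bases before to 50 bases after the RefSeq transcription start (GRCm38.p6), with the matches in capitals.
Dusp1, chr17:26508423-26508722, minus strand: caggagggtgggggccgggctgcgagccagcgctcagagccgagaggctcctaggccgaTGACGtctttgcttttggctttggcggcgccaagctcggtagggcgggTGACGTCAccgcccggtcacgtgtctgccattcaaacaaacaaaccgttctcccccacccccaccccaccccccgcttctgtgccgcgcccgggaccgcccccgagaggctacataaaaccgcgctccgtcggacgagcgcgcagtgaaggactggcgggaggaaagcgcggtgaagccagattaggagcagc
Dusp5, chr19:53528895-53529194, plus strand: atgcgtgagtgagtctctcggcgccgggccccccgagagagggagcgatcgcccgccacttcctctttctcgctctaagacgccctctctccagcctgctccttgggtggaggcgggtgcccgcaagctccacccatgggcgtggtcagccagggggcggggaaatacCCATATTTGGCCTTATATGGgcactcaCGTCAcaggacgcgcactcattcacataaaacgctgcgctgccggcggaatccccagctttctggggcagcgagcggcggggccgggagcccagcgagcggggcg
The searched motifs were TGACG, the core of the cAMP response element, the full element TGACGTCA, which holds 2 overlapping cores, the AP-1 motif TGANTCA, the NF-κB motif, and the CArG box of serum response factor. Both strands were searched. Dusp1 had 3 cores, at −191, −143 and −140 from the start, of which the last pair forms a full element, a motif found in 1.79% of 32851 promoters of this length. Dusp5 had 2 adjacent CArG boxes, at −82 and −72, where 1.63% of promoters held any, and 1 core at −55. RefSeq gave no promoter for Dusp4 in the set used here, so Dusp4 was not searched. The core was present in 5 of the 8 promoters of the other genes (Dusp1, Dusp2, Dusp5, Dusp16 and Spred2) and in 20.8% of all promoters. The AP-1 and NF-κB motifs were in 0 of the 8, against 7.81% and 1.47% of all promoters. The Dusp6 promoter held none of these motifs, so the 3 lower genes had no searched motif in common.

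Other MAP kinase phosphatases were scarce. Of 4 listed (Dusp7, Dusp8, Dusp9 and Dusp10), 3 were measured and 1 was called: Dusp7, a cytoplasmic ERK phosphatase, had 63 counts in TKO and 107 in WT and was 1.71-fold lower (1.24 to 2.37). Dusp10, a phosphatase of JNK and p38, had 10 counts in TKO and 20 in WT, too few for its interval to exclude equality. The median log2 ratio of the 3 was −0.73. Of 10 measured atypical and tyrosine-specific phosphatases 0 were called, with a median of 0.04. Beside both counts, 8.09% of all measured genes were called either way, 5.26% lower and 2.83% higher.

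Among 15 measured further Sprouty, Spred and Ras inhibitor genes, 4 were called lower and 0 higher, where 5.26% and 2.83% of all measured genes were, with a median log2 ratio of −0.11. Errfi1, which encodes the EGF receptor inhibitor MIG6, had 455 counts in TKO and 857 in WT and was 1.90-fold lower (1.69 to 2.13). The other 3 had few counts. Spry4 had 6 counts in TKO and 20 in WT, Spred3 had 19 in TKO and 37 in WT, and the Ras inhibitor gene Dab2ip had 10 in TKO and 22 in WT. Dab2ip was not called under TMM or DESeq2 scaling, Dab2ip and Spred3 were not called with 2 CPM added, and on the authors' FPKM 1 of the 4, Errfi1, was still called. Spred3 was named after its value was seen.

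The kinases themselves lay near equality. Of 21 measured genes from Ras to ERK 1 was called, and of 17 measured JNK and p38 cascade genes also 1, where 8.09% of all measured genes were called either way. From Ras to ERK this was Tnip2, which encodes the ABIN-2 partner of the kinase Tpl2. It had 232 counts in TKO and 356 in WT and was 1.54-fold lower (1.31 to 1.83). That call was lost with edgeR's TMM scaling, with DESeq2's size factors and with 2 CPM added. The median of the list was −0.06. In the JNK and p38 cascade it was Mapk11, the gene of p38 beta, with 31 counts in TKO and 74 in WT (2.40-fold lower, 1.56 to 3.78). Of 10 MAP kinase-activated kinases 0 were called. The medians of the last pair of lists were −0.01 each and turned sign under TMM scaling, so their direction is not read.

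Of 16 measured transcripts known to follow ERK activity, 4 were called lower and 0 higher, where 5.26% and 2.83% of all measured genes were, with a median of −0.22. Fos, which encodes an AP-1 subunit, had 60 counts in TKO and 191 in WT and was 3.20-fold lower (2.39 to 4.36). Fosl1, another AP-1 subunit gene, had 28 counts in TKO and 56 in WT (2.01-fold lower, 1.26 to 3.29). Ier3, an early response gene named after its value was seen, had 584 in TKO and 928 in WT (1.60-fold lower, 1.44 to 1.78), and Spry4 was the fourth. Over all 7 pathway lists, each gene counted 1 time, 10 of 91 measured genes were called lower and 0 higher, where 5.26% and 2.83% of all measured genes were, and the median was −0.06, close to the −0.04 of all. Like the 9 genes, which they leave out, the lists were chosen with earlier results of these data known, so these shares are not a test. Dusp4 was the only gene called higher among the 9 genes and the lists.

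**Figure D5:**
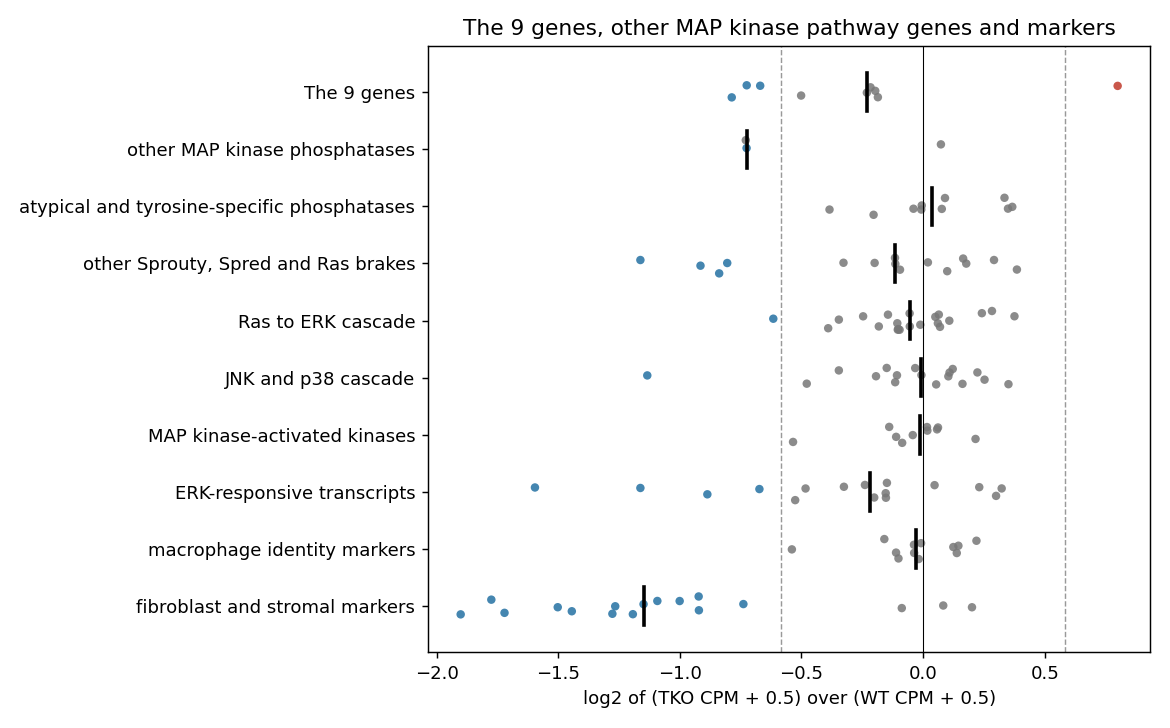
Log2 ratio of TKO over WT (0.5 CPM added) for the 9 genes, the measured genes of 7 MAP kinase pathway lists and 2 marker lists, with 1 point a gene, black bars at medians and dashed lines at 1.5-fold. Red is called higher and blue called lower, and Dusp4 is the 1 red point.

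The cells carried macrophage markers in both libraries. The 12 listed markers, such as Csf1r and Cd68, summed to 10404 CPM in TKO and 10316 CPM in WT, and 0 were called. Most fibroblast and stromal markers were also lower in TKO. Of 17 measured, 14 were called lower and 0 higher, where 5.26% and 2.83% of all measured genes were, with a median log2 ratio of −1.15. All 18 summed to 282 CPM in TKO and 664 CPM in WT, with 0 listed at 0 in either library. The 3 measured markers not called were Pdgfrb (510 counts in TKO and 478 in WT, ratio 1.06, 0.934 to 1.203), Thy1 and Pdgfra. Thy1 (39 in TKO and 33 in WT) and Pdgfra (30 in TKO and 32 in WT) had few counts. Fewer such cells and less RNA per cell cannot be told apart in bulk RNA, and the part of stromal RNA in the values of Dusp1, Dusp5, Dusp6 and Spred1 was not tested. Dusp4 was higher while most of these markers were lower, and the part of stromal RNA in its value was not tested either. Neutrophil markers summed to 26.8 CPM in TKO and 24.3 CPM in WT, with Ly6g at 0 in WT. Of 5 measured, 1 was called, S100a9, lower in TKO (8 counts in TKO and 21 in WT). Lymphocyte markers summed to 6.37 CPM in TKO and 9.29 CPM in WT. Of 2 measured, 1 was called, Lck, also lower (10 counts in TKO and 32 in WT). Both lists are short and both called genes had few counts, where 5.26% of all measured genes were called lower and 2.83% higher.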

How the data were processed

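Polyadenylated RNA was sequenced from 1 TKO and 1 WT library of LPS-treated macrophages. The authors deposited 1 table with estimated counts and FPKM values per gene. The tools RSEM 1.2.12, Bowtie2 2.2.5 and HISAT2 2.0.4 and the build mm10 come from the submitters' processing notes, which give no roles. Annotation, filters and strandedness are not given in the sources used here. By its header, the deposited log2 ratio is that of TKO over WT. Its values lay within 0.01 of the log2 ratio of the deposited FPKM for 16218 genes. The deposited p-value column was not printed here, and its adjusted value, treated as a score because it reaches 1.04, comes from the authors' own comparison, whose method is unstated.

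Estimated counts (79.4% whole in TKO, 79.2% in WT) were rounded. The 1 entry without a symbol (9.23e-06% of TKO counts, 9.29e-06% of WT counts) was left out. CPM used the library totals, and ratios have exact 95% Clopper-Pearson intervals conditional on the summed count (scipy 1.17.1, checked on simulated data). Intervals cover counting error only, since PCR reads without molecular identifiers are not independent molecules. Alternatives used edgeR 4.0.16 and DESeq2 1.42.0 for scaling. 3′ UTRs came from GENCODE M21 (GRCm38), and microRNAs, promoters and positions from RefSeq GRCm38.p6. From each pathway list the called genes were named, at most the 3 farthest in each direction. The 9 genes and all lists were chosen with earlier results of these data known.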

Additional observations from a re-analysis of the deposited data

How the results depend on the processing

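All 9 log2 ratios kept their sign under TMM and DESeq2 scaling, the authors' FPKM, 0.1 or 2 CPM added, and unrounded counts, with Dusp4 at 0.78 to 0.85, Dusp1 at −0.73 to −0.68, Dusp6 at −0.84 to −0.65 and Dusp5 at −0.74 to −0.49. Under these settings 4 of the 9 genes were called apart, except 3 with 2 CPM added, where Dusp5 was lost. The order by FPKM was the same for all 9 with counts per kilobase, and 3 genes held a seed match also over the union of annotated 3′ UTRs.

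Stricter rules admit fewer genes by construction. With a mean CPM of 10 or more required, 2 of the genes were called (1 higher, Dusp4, and 1 lower, Dusp1), and 4 pathway genes, all lower. Of all genes at that level, 2.12% were called higher and 3.11% lower. At 2-fold, 0 were called, 0 higher and 0 lower, beside 3 pathway genes, all lower. With the interval bound itself at 1.5-fold, 1 was called, Dusp4, with 0 lower, beside 3 pathway genes, all lower. The shares of all measured genes called at 2-fold or by the interval bound were not computed, so those counts have no background here. The pathway count of 10 was 7 to 10 under the other settings, which were TMM and DESeq2 scaling, FPKM, 0.1 or 2 CPM added, unrounded counts and no filter. Low counts widen the intervals of Spry2, Dusp5, Spry4, Dusp10, Dab2ip and Spred3. No paired analysis was possible because each genotype had 1 library, and for the same reason no replicate was left out.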
